A study of Mus musculus with 6 samples.

Results

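Leukocytes grip other cells, and decide whether to attack or spare them, through proteins on the cell surface. The data described here are the transcript levels of 9 mouse genes that encode such proteins in fibroadipogenic progenitors (FAPs), the mesenchymal cells of skeletal muscle that can become fibroblasts or adipocytes. The genes were picked by their symbols, and a gene counted as a member when the deposited table held a row for it. Of the 9, 8 had a row among the 16894 genes listed: Icam1, Vcam1, Alcam, Cd274, Cd276, Cd47, Cd200 and H2-T23. The level of the ninth, Pdcd1lg2, which encodes the PD-1 ligand PD-L2, was not analysed here.

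FAPs had been taken from leg muscles of male and female C57BL/6 mice aged 3 to 6 months by magnetic sorting for cells that carry SCA-1 and lack CD45, CD31 and α7-integrin, and were grown in medium with serum and bFGF at low oxygen. Bulk mRNA was sequenced from 3 control (non-senescent) cultures and from 3 cultures made senescent with 20 μM of etoposide, a topoisomerase poison that breaks DNA, over 48 h and then kept in normal medium for 5 days. The labels do not say what the control cultures received in place of etoposide, nor whether the replicates came from separate animals, so the p values measure the spread between these cultures, which may be technical. Values are CPM, the reads of a gene scaled to a common library size that includes normalization factors of edgeR. Changes are differences of log2(CPM + 0.5), senescent minus control, tested with limma, and a gene was called at a Benjamini-Hochberg adjusted p under 0.05 over all 14776 genes tested.

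Some facts of the libraries bear on every value. Genes received 41412179 to 59912520 reads per library, so a single read was worth 0.0167 to 0.0225 CPM. Cdkn1a, which encodes the cell cycle inhibitor p21, lay at 259.5 to 335.9 CPM in control and at 1017 to 1060 CPM in senescent FAPs, and the proliferation marker Mki67 at 100.5 to 247.3 and 9.27 to 19.0 CPM, whereas Cdkn2a, which holds p16, overlapped between the groups (56.5 to 129 and 63.2 to 104 CPM). The FAP markers Pdgfra (126 to 254 CPM) and Ly6a, which encodes SCA-1 (220 to 678 CPM), were present in all 6 libraries, but the 8 FAP markers did not move together. Their sum was 11457 to 23299 CPM in control and 4458 to 6746 CPM in senescent FAPs. Col1a1, a collagen gene, made up most of it, with 9978 to 21130 and 2353 to 4073 CPM, so the sum says little about the other markers. Col1a1 was called lower (−2.29, limma adjusted p = 0.0015), and Pdgfrb had 943 to 1070 and 846 to 876 CPM without passing the test (limma adjusted p = 0.0837). Dcn (1.79), Lum (1.98), Cd34 (1.60) and Ly6a (0.81) were called higher. Of 15 leukocyte markers 9 had a row, and Ptprc, which encodes CD45, was not among them. Their summed level was 12.2 to 15.7 CPM in control and 27.6 to 34.5 CPM in senescent FAPs, led in the latter by Cd53 at 8.36 to 13.7 CPM. The 5 endothelial markers with a row summed to 20.4 to 41.3 CPM in control and 24.2 to 31.7 CPM in senescent FAPs. Pecam1, which encodes CD31, was at 0.467 to 1.03 and 1.59 to 1.87 CPM and called higher (limma adjusted p = 0.00897). Kdr was called lower (log2 fold change −0.74, limma adjusted p = 0.00989). Tek (0.18, limma adjusted p = 0.688) and Egfl7 (−0.14, limma adjusted p = 0.503) were not called, and Cdh5 was not tested. Of 7 myogenic markers 3 had a row, and they summed to 15.2 to 19.5 and 24.3 to 31.3 CPM. Itga7 was called higher (log2 fold change 0.83, limma adjusted p = 0.00771), while Chrna1 (limma adjusted p = 0.0508) and Des (limma adjusted p = 0.415) were not called. Thy1, a FAP surface marker, stood at 489 CPM in control replicate 1 and 615 CPM in senescent replicate 1, against 41.3 to 73.6 CPM in the other 4 libraries.

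As background, the proteins fall into 3 kinds. ICAM-1 and VCAM-1 are immunoglobulin-type anchors for leukocyte integrins (ICAM-1 for the β2 integrins LFA-1 and Mac-1, VCAM-1 for the α4 integrin VLA-4), and ALCAM binds CD6 on T cells or another ALCAM. PD-L1, encoded by Cd274, engages PD-1 on T cells and restrains them, and B7-H3, encoded by Cd276, belongs to the same B7 family with a receptor that is less settled. CD47 binds SIRPα on macrophages as a signal against engulfment, CD200 quiets myeloid cells through CD200R1, and Qa-1b, encoded by H2-T23, is a non-classical class I molecule that engages the inhibitory receptor NKG2A on natural killer cells. Interferons and NF-κB activators are the well-known inducers of Icam1, Vcam1, Cd274 and class I genes in many cell types.

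In GENCODE M21 on GRCm38, the build the submitters' notes name as mm10, the members lie on chromosomes 3, 9, 16, 17 and 19. Icam1 spans chromosome 9 from 21015985 to 21028817 on the plus strand, and Cd276 lies on the same chromosome from 58524298 to 58555437 on the minus strand. Vcam1 is on chromosome 3 from 116109949 to 116129688, minus strand. Cd200 (45382135 to 45409053, minus), Cd47 (49800533 to 49915010, plus) and Alcam (52248996 to 52454074, minus) share chromosome 16. H2-T23 is in the major histocompatibility complex on chromosome 17 from 36029773 to 36032855, minus strand. Cd274 occupies chromosome 19 from 29367455 to 29388095 on the plus strand, directly before Pdcd1lg2, which begins at 29410919. Annotated genes on the opposite strand overlap exons of Icam1, Vcam1, Cd274 and Cd276. The library kit keeps strand, but whether the counting used it is not given in the sources used here, so reads of such pairs cannot be told apart.

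Promoter sequences were searched for the elements GAS, ISRE, AP-1 and κB, which interferon-activated and inflammatory transcription factors are known to bind. RefSeq (GRCm38.p6) windows were at hand for 8 of the 9 symbols, Vcam1 being the exception, and the 250 bases before the transcription start are printed for the 3 genes with the largest rises among those with a window and for Cd47, which was level. Capitals mark a motif match, and sequences run 5′ to 3′ on the gene's own strand. Starts here are those of RefSeq. The Cd47 window and the motif match of H2-T23 lie inside the GENCODE spans given above, so they precede the RefSeq starts only. The windows are chr9:21015690-21015939 (plus strand) for Icam1, chr19:29367188-29367437 (plus strand) for Cd274, chr17:36032702-36032951 (minus strand) for H2-T23 and chr16:49855404-49855653 (plus strand) for the more upstream of 2 RefSeq starts of Cd47.
Icam1: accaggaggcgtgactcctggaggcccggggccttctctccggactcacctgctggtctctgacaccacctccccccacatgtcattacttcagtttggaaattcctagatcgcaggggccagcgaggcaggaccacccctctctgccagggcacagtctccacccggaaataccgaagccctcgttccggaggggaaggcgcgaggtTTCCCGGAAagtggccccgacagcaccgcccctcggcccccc
Cd274: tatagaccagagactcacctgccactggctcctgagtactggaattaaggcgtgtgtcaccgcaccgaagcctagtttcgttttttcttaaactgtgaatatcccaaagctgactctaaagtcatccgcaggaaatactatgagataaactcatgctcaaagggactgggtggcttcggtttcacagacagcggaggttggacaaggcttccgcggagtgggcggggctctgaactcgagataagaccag
H2-T23: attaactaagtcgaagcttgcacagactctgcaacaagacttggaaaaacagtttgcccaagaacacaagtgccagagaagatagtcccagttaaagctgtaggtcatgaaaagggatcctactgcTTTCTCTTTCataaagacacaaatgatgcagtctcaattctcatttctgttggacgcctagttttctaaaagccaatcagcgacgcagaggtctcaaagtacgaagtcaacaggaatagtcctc
Cd47: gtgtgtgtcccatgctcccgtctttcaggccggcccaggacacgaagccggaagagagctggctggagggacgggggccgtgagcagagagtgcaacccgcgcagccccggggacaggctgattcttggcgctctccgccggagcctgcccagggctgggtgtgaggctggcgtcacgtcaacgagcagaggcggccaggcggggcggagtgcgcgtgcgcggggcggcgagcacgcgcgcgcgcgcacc
The Icam1 window held TTCCCGGAA, 42 to 34 bases before the start, which matches the STAT element GAS (TTCNNNGAA). The H2-T23 window held TTTCTCTTTC, 124 to 115 bases before the start, which is the reverse complement of a match to the interferon response element ISRE (GAAA, any 2 bases, GAAA). No such match, nor one to the AP-1 element TGANTCA or to the κB consensus, stood in the windows of Cd274, Cd47, Cd200, Cd276 or Alcam. This says only that these letters are not in these bases. The κB consensus was taken as GGG, a purine, any 2 bases, 2 pyrimidines and CC, and looser forms of it were not searched in any window. Of the members' windows only that of Pdcd1lg2 held a κB match, 244 to 235 bases before the start. On either strand, GAS occurred in 7.02% of all 32851 windows of this length, ISRE in 2.98%, AP-1 in 6.75% and κB in 7.25%, overlaps between motifs being allowed. The windows of Cd47 (73.2% G and C) and Cd276 (77.6%) were richer in G and C than those of H2-T23 (42.4%), Cd200 (42.4%) and Cd274 (50.4%), with Icam1 (65.2%) and Alcam (69.2%) in between.

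Senescent FAPs carried more transcript of Icam1, Cd274, H2-T23 and Vcam1 than control FAPs, whereas Cd47, Cd200 and Alcam overlapped between the groups and Cd276 lay lower in each same-numbered pair. All 8 genes passed the filter on low values. At a limma adjusted p under 0.05, 4 of the 8 were called higher, against 21.8% of all genes tested, and 0 were called lower, against 24.3% (also 0 with edgeR and DESeq2 on reads recovered from the CPM, and 1, Cd276, at an unadjusted p under 0.05). With the replicate number as a block, which treats same-numbered cultures as pairs, 1 was called lower, again Cd276 (limma adjusted p = 0.00255). With libraries scaled by their totals alone, which moves the median of all genes from −0.03 to 0.17, the share of higher genes among all calls went from 47.3% to 72.1%, and 5 members were called higher. Counting both directions, 4 of 8 is close to the 46.1% of all genes that were called. At the study's cut-offs, an unadjusted p under 0.01 with a log2 fold change beyond 1, the same 4 were higher and 0 lower. Of all genes 6.93% and 3.9% passed in the same way. The p and fold change used here were limma's, whereas the study tested with edgeR, so these shares are not the study's own. In these 4 genes every senescent library lay above every control library, as in 26.5% of all genes, and no member had all senescent libraries below all control libraries, as 30.9% of genes did. The median log2 fold change was 0.62 over the 8 genes and −0.03 over all genes tested. In a bulk sample, fewer cells that express a gene and less RNA per cell cannot be told apart.

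**Figure D1:**
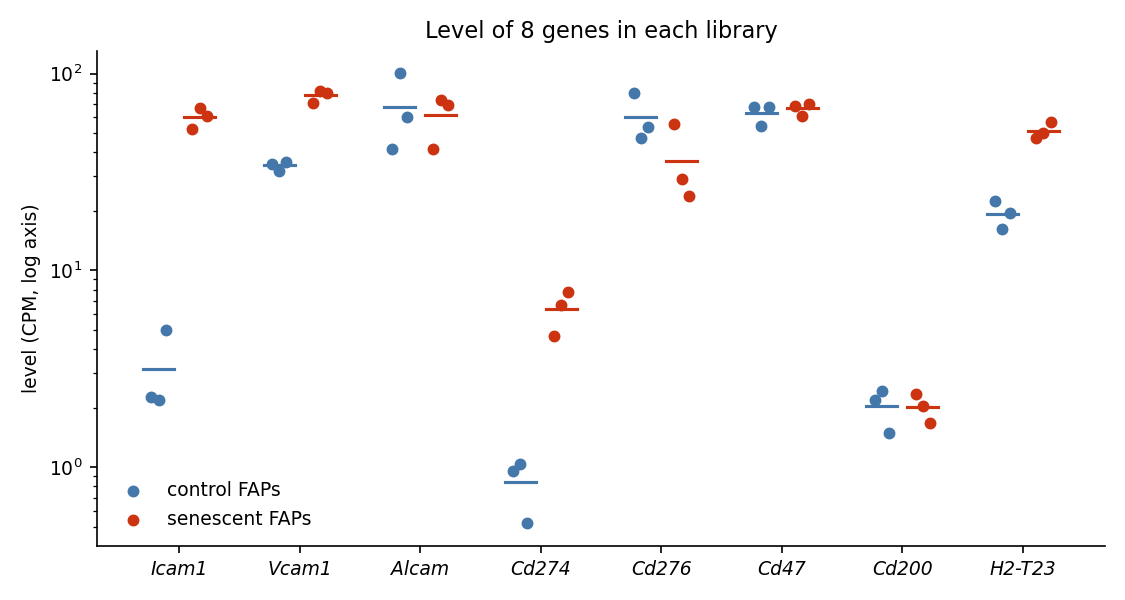
Level of each of the 8 genes in CPM on a log axis, 1 point per library and a bar at the group mean, for 3 control (blue) and 3 senescent (red) cultures. The colors are fully separate for Icam1, Vcam1, Cd274 and H2-T23 and overlap for Alcam, Cd276, Cd47 and Cd200.

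Among the adhesion genes, Icam1 showed the largest change of the 8. It had 2.28, 2.21 and 5.01 CPM in control replicates 1, 2 and 3 and 52.5, 66.8 and 60.6 CPM in senescent replicates 1, 2 and 3, behind which stood 102 to 279 and 2642 to 3995 reads. Control replicate 3 was the highest control, and the lowest senescent library still lay far above it. The group means of 3.16 ± 1.60 and 59.9 ± 7.21 CPM (SD, n = 3 each) differ 19.0-fold, and the log2 fold change was 4.12 ± 0.27 (SE, limma adjusted p = 1.31e-04). The same-numbered cultures gave 4.25, 4.64 and 3.47 on the log2 scale for replicates 1, 2 and 3.

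Vcam1 started from a higher level and rose less. It had 34.6, 32.2 and 35.6 CPM in the control and 70.8, 81.3 and 80.1 CPM in the senescent replicates. The libraries of a group were close to each other, with a coefficient of variation of 5.15% in control and 7.41% in senescent FAPs, the lowest of the 8 genes in both groups. The log2 fold change was 1.17 ± 0.08 (SE, limma adjusted p = 1.61e-04), or 2.27-fold between the means. The difference of log2(CPM + 0.5) between Icam1 and Vcam1 within a library, a log2 ratio that library scaling touches only through the added 0.5, was −3.66, −3.59 and −2.71 in control and −0.43, −0.28 and −0.40 in senescent replicates. The groups were fully separate in this ratio, and its mean differed by 2.95 (exact permutation test on both sides, p = 0.1, which 3 against 3 cannot go below, and 0.1 after adjustment over 2 ratios). Over the 3 same-numbered pairs the exact permutation p was 0.25, the smallest that 3 pairs allow.

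Alcam varied more between cultures than between groups. Its levels were 41.6, 100.3 and 60.3 CPM in control and 41.3, 73.6 and 69.0 CPM in senescent replicates. Replicate 1 was the lowest and replicate 2 the highest in both groups, and the groups overlapped. The log2 fold change was −0.09, with a 95% interval from −0.85 to 0.68 (limma adjusted p = 0.849), so these cultures leave room for a change in either direction.

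Of the B7 family ligands, Cd274 rose from a low level. It had 0.960, 1.05 and 0.521 CPM in control replicates, which are 43, 55 and 29 reads, and 4.67, 6.71 and 7.81 CPM in senescent replicates, which are 235, 401 and 347 reads. The groups did not overlap. The log2 fold change of 2.36 ± 0.24 (SE, limma adjusted p = 4.02e-04) lies on the log2(CPM + 0.5) scale, which understates the change of a gene this low, and the ratio of the means of 0.842 ± 0.282 and 6.39 ± 1.59 CPM (SD, n = 3 each) was 7.59. The differences between same-numbered cultures were 1.82, 2.22 and 3.03.

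Cd276 went the other way without passing the test. It had 79.2, 46.8 and 53.5 CPM in control and 55.2, 29.3 and 23.96 CPM in senescent replicates. Replicate 1 was the highest in both groups, and senescent replicate 1 lay above control replicates 2 and 3, so the groups overlapped. The log2 fold change was −0.78, with a 95% interval from −1.50 to −0.05 (limma adjusted p = 0.0768). Within same-numbered pairs the difference was −0.52, −0.67 and −1.14, and with the replicate number as a block the adjusted p was 0.00255 at the same fold change. Without senescent replicate 1 the log2 fold change was −1.12 (limma adjusted p = 0.00927), and without control replicate 2 it was −0.93 (limma adjusted p = 0.0444), both past the threshold.

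Cd47 and Cd200, the members that encode signals to macrophages and other myeloid cells, showed no difference that these libraries could resolve under the main scaling. Cd47 had 67.6, 54.4 and 67.7 CPM in control and 68.4, 60.8 and 70.3 CPM in senescent replicates, with replicate 2 the lowest in both groups. Its log2 fold change was 0.08, and the 95% interval from −0.17 to 0.33 was the narrowest among the 4 genes not called (limma adjusted p = 0.587). Division by library totals alone, without edgeR's factors, raised it to 0.29 (limma adjusted p = 0.0498), which is the member that this scaling adds. Cd200 was low, with 2.21, 2.43 and 1.49 CPM in control and 2.36, 2.04 and 1.69 CPM in senescent replicates, or 75 to 128 reads. The groups overlapped almost entirely, with a log2 fold change of 0.00 and a 95% interval from −0.46 to 0.46 (limma adjusted p = 0.992).

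H2-T23 had 22.5, 16.3 and 19.5 CPM in control and 47.2, 49.9 and 56.8 CPM in senescent replicates. The highest control library was less than the lowest senescent one, and the log2 fold change was 1.39 ± 0.13 (SE, limma adjusted p = 3.45e-04). B2m, the light chain that Qa-1b needs at the surface, rose by 0.74 ± 0.18 in log2 units (SE, limma adjusted p = 0.0123), from 165 to 227 CPM in control to 252 to 391 CPM in senescent FAPs. The log2 ratio of H2-T23 to B2m was −2.85, −3.76 and −3.29 in control and −2.40, −2.78 and −2.77 in senescent replicates. The groups did not overlap in this ratio, and the mean was higher by 0.65 in senescent FAPs (exact permutation test on both sides, p = 0.1, again the smallest possible, and 0.1 after adjustment). The difference leaned on control replicate 2, without which it was 0.42, and it was 0.87 without control replicate 1. Over same-numbered pairs the exact permutation p was 0.25, the smallest possible. H2-T23 has close relatives among class I genes, between which the authors' counting could have split or lost reads, so its value is uncertain to that extent.

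**Figure D2:**
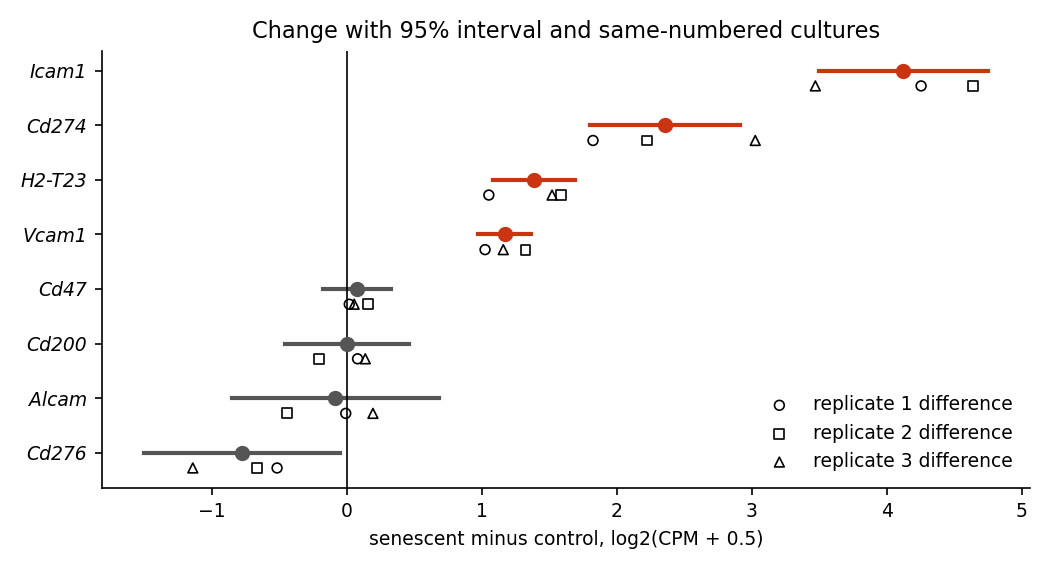
Log2 fold change of each gene (filled point) with limma's 95% interval (line, red where called higher), and below it the difference of each same-numbered pair of cultures (open marks), on the log2(CPM + 0.5) scale. The intervals of Icam1, Cd274, H2-T23 and Vcam1 lie right of 0, and all 3 pairs of Cd276 lie left of it, from −1.14 to −0.52.

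Levels of different genes can be set side by side only per length, here as CPM per kb of annotated exon. In control FAPs the order was Cd276 (16.4 ± 4.68 CPM per kb, SD, n = 3), Cd47 (10.1 ± 1.22), Alcam (9.46 ± 4.21), H2-T23 (6.72 ± 1.08), Vcam1 (3.85 ± 0.198), Icam1 (0.726 ± 0.367), Cd200 (0.616 ± 0.149) and Cd274 (0.232 ± 0.0778). Ranges over the libraries overlapped between Cd47 and Alcam, between Alcam and H2-T23 and between Icam1 and Cd200, and were apart between the other neighbors. In senescent FAPs H2-T23 (17.8 ± 1.71 CPM per kb) and Icam1 (13.7 ± 1.65) stood first and second with ranges apart from each other and from the next gene, although the highest Cd276 library reached into the range of Icam1. Cd47 (10.6 ± 0.803), Cd276 (9.88 ± 4.57), Vcam1 (8.72 ± 0.646) and Alcam (8.61 ± 2.45) followed, each overlapping the next. Cd274 (1.77 ± 0.440) and Cd200 (0.611 ± 0.102) came last, now in the reverse order. Among all genes tested that had a length, Icam1 passed from above 17.8% of genes in control to above 77.7% in senescent FAPs. Cd274 stayed in the lower part of the range, above 8.0% and then 30.0% of genes, and Cd47 lay above 69.2% and 72.2%.

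**Figure D3:**
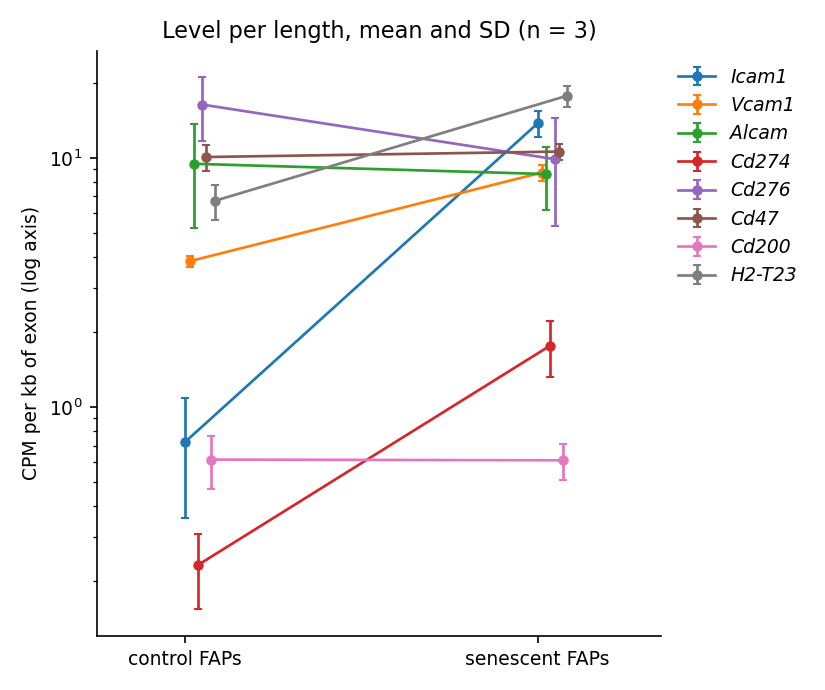
Mean level per kb of exon with SD (n = 3) in control and senescent FAPs on a log axis, 1 line per gene. The lines of Icam1 and H2-T23 climb above those of the other genes, from 0.726 to 13.7 and from 6.72 to 17.8 CPM per kb, while those of Cd47 and Cd200 run flat.

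Other adhesion genes, from a hand-written list of 23, moved in both directions. Of the 17 tested, 7 were called higher and 2 lower, against 21.8% and 24.3% of all genes tested, or 46.1% in either direction. The median log2 fold change was 0.43, and with library totals alone 11 were higher and 1 lower. The smallest p values belonged to Cxcl16, a membrane-bound chemokine that can hold leukocytes (4.44 to 5.74 CPM in control and 15.1 to 16.5 CPM in senescent FAPs, log2 fold change 1.54, limma adjusted p = 2.52e-04), and to the sialomucin gene Cd34 (1.60, limma adjusted p = 6.99e-04). Cx3cl1, the other chemokine that is made as a membrane-bound anchor, fell by 1.25 on the log2 scale (limma adjusted p = 8.68e-04), from 88.0 to 116 CPM in control to 37.2 to 53.5 CPM in senescent FAPs. Cd44, a receptor of hyaluronan and osteopontin, had a log2 fold change of −0.02 (limma adjusted p = 0.895).

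The list of other inhibitory ligands and enzymes held 26 genes, of which 20 were tested, 10 called higher and 1 lower (median log2 fold change 0.62). Over all genes tested 21.8% were called higher, 24.3% lower and 46.1% in either direction. Of the 10, Ido1 (0.0223 to 0.0761 CPM in control and 0.516 to 0.743 CPM in senescent FAPs) and Fgl1 (0.144 to 0.209 and 0.596 to 1.22 CPM) passed the filter on low values only through the senescent libraries, which favors their call. With the replicate number as a block 12 were higher and 2 lower. The higher genes added were Ceacam1 (limma adjusted p = 0.0374) and Nt5e (limma adjusted p = 0.0139). Tgfb1 was the lower gene added (limma adjusted p = 0.0159, and 0.0533 without the block). The first by p were Vsir, which encodes the checkpoint molecule VISTA and is listed under an older symbol (10.2 to 13.3 CPM in control and 43.2 to 44.7 CPM in senescent FAPs, log2 fold change 1.87, limma adjusted p = 1.01e-04), Cd80, whose product binds CD28, CTLA-4 and also PD-L1 (1.96, limma adjusted p = 1.58e-04), and Lgals9, the galectin that binds TIM-3 (1.00, limma adjusted p = 4.02e-04). Cd55, a brake on complement, rose by 2.75 (limma adjusted p = 0.00537) with control libraries from 2.66 to 11.5 CPM. Nectin2, a ligand of TIGIT and DNAM-1, was the gene called lower, with a log2 fold change of −0.45 (limma adjusted p = 0.0194, and 0.129 with library totals alone), and Pvr, which binds the same receptors, had −0.11 (limma adjusted p = 0.307). Ligands of NKG2D, an activating receptor of natural killer cells, were few. Of 9 listed, 3 were tested, and Ulbp1 was called lower (−0.73, limma adjusted p = 0.0294, and 0.0891 with library totals alone), while Raet1d (0.61) and Raet1e (0.21) were not called.

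A list of 18 genes that make, load, anchor or cut the proteins of the 8 genes was tested whole. Of these, 7 were called higher and 4 lower, against 21.8% and 24.3% of all genes tested, and the median log2 fold change was 0.12. The peptide transporter genes Tap1 (1.67, limma adjusted p = 2.32e-04) and Tap2 (1.12, limma adjusted p = 7.93e-04) rose, as did H2-D1 (1.03, limma adjusted p = 3.31e-04), the class I gene whose leader peptide Qa-1b typically presents. Other genes of class I folding and loading went down, namely Calr (−0.83, limma adjusted p = 0.00106) and Pdia3 (−0.45, limma adjusted p = 0.00671), chaperones of the loading complex, and the peptide trimming gene Erap1 (−0.46, limma adjusted p = 0.00633). With library totals alone Pdia3 (limma adjusted p = 0.0741) and Erap1 (limma adjusted p = 0.0651) were not called. H2-K1 had 31.2 to 81.1 CPM in control and 57.0 to 61.1 CPM in senescent FAPs and was not called (0.17, limma adjusted p = 0.664). Qpctl, which encodes the enzyme that modifies CD47 so that SIRPα can bind it, had 18.4 to 21.2 CPM in control and 31.0 to 33.8 CPM in senescent FAPs and rose by 0.74 (limma adjusted p = 8.85e-04). The PD-L1 partner gene Cmtm6 had 0.06 (limma adjusted p = 0.577), whereas its relative Cmtm4 rose by 0.88 (limma adjusted p = 0.00475). Of the sheddases that can release these proteins, Adam17 fell by 0.29 (limma adjusted p = 0.0215, and 0.436 with library totals alone) and Adam10 had −0.30 without passing the test (limma adjusted p = 0.0797). With the replicate block Adam10 was called lower (limma adjusted p = 0.0149), as was Ezr, and the list then held 6 lower genes, and by library totals alone it held 1.

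The class I relatives of H2-T23 were mostly low, H2-T22 being the highest. Of 12 listed, 5 were tested and 3 called higher, against 21.8% of all genes tested, with a median log2 fold change of 0.60. H2-T22 had 41.2 to 48.7 CPM in control and 64.4 to 77.2 CPM in senescent FAPs (0.67, limma adjusted p = 0.00168), H2-Q4 had 0.88 (limma adjusted p = 0.00936) and H2-T10 had 0.60 (limma adjusted p = 0.0470). H2-T10 was not called with the replicate block (limma adjusted p = 0.0569).

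Receptors that leukocytes use for these ligands were mostly near the floor of the table. Of 16 listed, 8 passed the filter on low values and 4 of those were called higher, against 21.8% of all genes tested. The filter itself favored some of these calls, so the count is given as a description only. Trem2 (0.0446 to 0.380 CPM in control and 1.37 to 1.66 CPM in senescent FAPs) and Itgam (0 to 0.0670 and 0.516 to 0.837 CPM) were below the filter in all control libraries and were tested only through the senescent ones. Itgb2, which was above it in all 6 libraries, had 0.503 to 1.03 and 1.99 to 3.01 CPM (limma adjusted p = 0.00458). Itgam and Itgb2 encode the chains of Mac-1, the receptor of ICAM-1 on myeloid cells. Of the leukocyte markers, Lyz2 (1.45 to 2.01 and 5.28 to 6.59 CPM, log2 fold change 1.53) and Cd68 (1.15 to 1.84 and 4.13 to 5.79 CPM, log2 fold change 1.43) were called higher as well. Other leukocyte markers did not follow. Lcp1 (−0.57, limma adjusted p = 0.178) and Csf1r (0.15, limma adjusted p = 0.343) were not called. Lcp1 was called lower with the replicate block (limma adjusted p = 0.0334), and Csf1r higher with library totals alone (limma adjusted p = 0.0454). The part of leukocyte transcripts in the changes of Icam1, Vcam1, Cd274 and H2-T23 was not tested. Sirpa, which encodes the CD47 receptor, was itself present in FAPs, at 41.3 to 55.1 CPM in control and 43.4 to 48.7 CPM in senescent libraries (log2 fold change −0.11, limma adjusted p = 0.466), and Cd200r1 was at 0.112 to 0.723 CPM in all libraries.

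**Figure D4:**
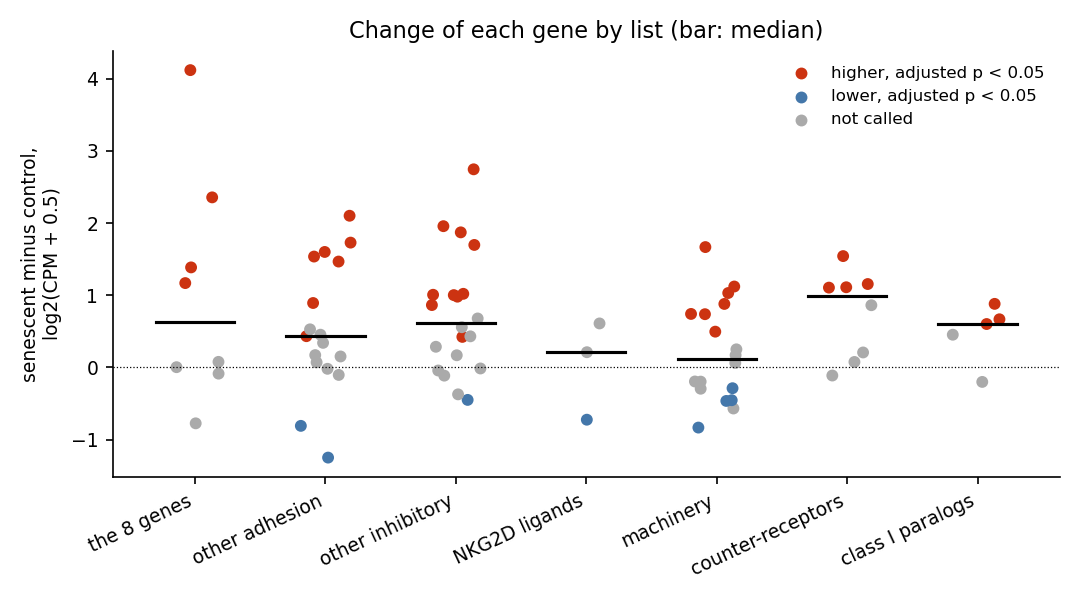
Log2 fold change of every tested gene of the 8 members and of 6 hand-written lists, colored by its call at a limma adjusted p under 0.05, with a bar at the median of each list. The median is 0.12 for the machinery list and 0.43 for the adhesion list, against −0.03 for all genes tested, the counter-receptor points include 2 genes (Trem2 and Itgam) that passed the filter only through the senescent libraries, and calls in both directions occur in the adhesion, inhibitory and machinery lists.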

How the data were processed

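Libraries had been made with a stranded mRNA kit and sequenced on an Illumina HiSeq instrument. Per the labels and the submitters' processing notes, the authors used edgeR 3.10 in R 3.6.0 and build mm10 and deposited the signal as CPM of the effective library size, with a column for each library. The aligner, the counter and the annotation are not given in the sources used here. Every deposited value (100% within 0.1 read) was a whole multiple of 1 read, so reads were recovered, and a line that names no gene (0.00409% to 0.00699% of reads) was left out.

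Control was compared with senescent FAPs (3 libraries each) with limma 3.58.1 in R 4.3.3 on log2(CPM + 0.5) with a variance trend, over the 14776 genes that reached 0.5 CPM in 3 or more libraries, after a check on simulated data. The plan assumed CPM, and the same test was kept for this signal. The alternatives were other pseudocounts, filters, scalings and thresholds, a replicate block, each library left out, and edgeR 4.0.16 quasi-likelihood and DESeq2 1.42.0 tests on the recovered reads. Deviations from the group means correlated at 0.54, 0.31 and 0.21 in same-numbered cultures 1, 2 and 3. Between cultures of different numbers the correlations were −0.36 to 0.15. The main test took no account of the numbers, and the replicate block and the differences of same-numbered cultures are given beside it.

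The members and lists were chosen with earlier results of these data known. Named were the members, the first 3 genes by p of every list with 9 or more, Cdkn1a, Cdkn2a, Mki67, B2m and the defining markers. Also named were Cd44, Cd53, Thy1, Cd55, Nectin2, Pvr, Tgfb1, H2-K1, Qpctl, Cmtm4, Cmtm6, Adam10, Adam17, Ezr, Sirpa, Cd200r1, Calr, Pdia3, Erap1, Ido1, Fgl1, Col1a1, Pdgfrb, Dcn, Lum, Csf1r, Lcp1, Kdr, Egfl7, Tek, Chrna1 and Des, all chosen after their values were seen. Cdh5, Ceacam1 and Nt5e were likewise named after their values were seen. Older symbols were matched through RefSeq synonyms, and exon lengths are from GENCODE M21. A planned ratio of Cd274 to Pdcd1lg2 and planned protein comparisons were not run.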

Additional observations from a re-analysis of the deposited data

How the results depend on the processing

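Icam1, Vcam1, Cd274 and H2-T23 were called higher under all 18 alternatives, with log2 fold changes of 3.93 to 4.46, 1.13 to 1.38, 1.99 to 2.97 and 1.27 to 1.60. The replicate block added Cd276 to the calls, for 1 member lower at an unchanged log2 fold change of −0.78, and changed no other member's call. It and edgeR's quasi-likelihood test each gave 2 lower inhibitory genes in place of 1. The block also gave 12 higher inhibitory genes in place of 10. With library totals alone, the calls over all genes became 4992 higher and 1929 lower in place of 3218 and 3592, 11 adhesion genes were higher and 1 lower, 1 machinery gene was lower, and 0 inhibitory genes and 0 NKG2D ligands were lower. Cd47 then had 0.29, past the threshold, and Alcam 0.12 in place of −0.09. By quantile normalization 2 machinery genes were lower and Cd200 had −0.20, and by edgeR's quasi-likelihood test Cd200 had −0.0067. At an adjusted p under 0.01, 1840 genes were higher and 2118 lower, with 1 adhesion gene and 0 inhibitory or NKG2D genes lower. Without the filter 5 class I relatives were higher in place of 3, and with a filter at 2 CPM 0 counter-receptors were higher in place of 4. Leaving out each library in turn gave 2130 to 3405 genes higher over all genes (the lowest without senescent replicate 2), 0 to 1 members lower, 1 to 2 adhesion genes lower, 0 to 1 inhibitory genes lower, 0 to 2 NKG2D ligands higher (the highest without control replicate 2) and 0 to 1 lower, and 0 to 1 counter-receptors lower. In these fits Cd276 had −1.12 to −0.53, Alcam −0.38 to 0.25, Cd47 −0.027 to 0.14 and Cd200 −0.16 to 0.12. In the same leave-one-out fits the log2 ratio of H2-T23 to B2m differed by 0.42 to 0.87 and that of Icam1 to Vcam1 by 2.78 to 3.26 between the groups. The cause of these shifts was not tested. The depth left Cd274 in control FAPs at 29 to 55 reads, and the intervals of Alcam and Cd276 are wide because their cultures differed within a group.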
